A study of Mus musculus with 18 samples.

Results

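The genes described are 8 carrier and plasma protein genes, *Afp*, *Alb*, *Ahsg*, *Trf*, *Ttr*, *Rbp4*, *Gc* and *Vtn*, chosen by name. Of these, 7 have a probe set of their own on the array, with 1 probe set each, among 19938 gene symbols that have one. *Gc*, the vitamin D carrier of the albumin family, is not analysed here. The arrays came from 3 mouse embryonic stem cell (ESC) lines of strain J1 (129Sv/Jae). TKO cells are *dnmt1-/-*, *dnmt3a-/-*, *dnmt3b-/-* and so lack the maintenance and both de novo DNA methyltransferases, *Dnmt1-/-* cells lack the maintenance enzyme alone, and wt cells carry none of these mutations. Each line was profiled as undifferentiated ESCs (day 0) and as embryoid bodies (EBs), aggregates grown in hanging drops, at day 4 and day 16. With 2 arrays from biological replicates in each of the 9 groups there were 18 arrays in all. The labels give 1 line per genotype, so a difference between genotypes is a difference between these lines, and EBs hold many cell types whose RNA was pooled. In such RNA, fewer cells of a type and less RNA per cell cannot be told apart.

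These proteins are secreted into blood or yolk sac fluid, where they carry lipids, hormones, iron and vitamins. In the embryo they are made first by the visceral endoderm of the yolk sac, the epithelium that surrounds the early conceptus and also lines the outside of EBs, and then by the fetal liver. *Afp*, *Trf*, *Ttr* and *Rbp4* are classical products of visceral endoderm, whereas *Alb* becomes abundant with hepatocyte differentiation. *Alb* and *Afp* lie next to each other and descend from 1 ancestral gene.

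The promoters are shown because the 7 genes fell into 2 patterns in EBs that lack DNA methyltransferases, and CG dinucleotides are the bases those enzymes methylate. Each run gives the 250 bases before the start of a RefSeq transcript, 5′ to 3′ on the strand of the gene, in build GRCm38.p6. Capitals mark every CG.

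Alb promoter (chr5:90460620-90460869, plus strand): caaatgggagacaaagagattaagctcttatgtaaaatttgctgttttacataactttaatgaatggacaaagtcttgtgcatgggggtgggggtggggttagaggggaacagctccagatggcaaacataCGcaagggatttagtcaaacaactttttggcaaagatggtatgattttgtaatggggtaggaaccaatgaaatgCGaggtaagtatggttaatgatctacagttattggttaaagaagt
Afp promoter (chr5:90490464-90490713, plus strand): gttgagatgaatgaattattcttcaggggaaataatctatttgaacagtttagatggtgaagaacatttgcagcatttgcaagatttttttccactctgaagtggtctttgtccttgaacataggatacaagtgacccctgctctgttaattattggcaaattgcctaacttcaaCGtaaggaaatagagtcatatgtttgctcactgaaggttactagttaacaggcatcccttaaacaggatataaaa
Vtn promoter (chr11:78498870-78499119, plus strand): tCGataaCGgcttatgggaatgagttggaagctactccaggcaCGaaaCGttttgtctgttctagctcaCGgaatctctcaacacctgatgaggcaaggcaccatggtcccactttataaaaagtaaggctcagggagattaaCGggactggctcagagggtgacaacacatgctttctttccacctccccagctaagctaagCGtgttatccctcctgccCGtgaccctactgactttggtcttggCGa
Ahsg promoter (chr16:22891765-22892014, plus strand): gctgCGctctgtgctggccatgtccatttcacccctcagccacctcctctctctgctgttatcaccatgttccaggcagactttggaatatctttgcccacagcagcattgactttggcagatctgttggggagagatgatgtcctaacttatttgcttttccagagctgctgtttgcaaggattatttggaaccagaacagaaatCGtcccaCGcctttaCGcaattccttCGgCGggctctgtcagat
Rbp4 promoter, the window with more CG (chr19:38124812-38125061, minus strand): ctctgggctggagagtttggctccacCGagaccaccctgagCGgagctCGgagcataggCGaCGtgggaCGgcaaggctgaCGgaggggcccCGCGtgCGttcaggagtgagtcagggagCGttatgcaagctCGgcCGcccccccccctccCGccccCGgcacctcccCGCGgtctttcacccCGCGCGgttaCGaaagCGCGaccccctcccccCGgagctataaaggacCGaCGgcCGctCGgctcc

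The windows of *Afp* and *Alb* held 1 and 2 CG, against a median of 6 over 32851 windows, of which 18.8% held at most 1 and 29.0% at most 2. *Ahsg* had 6 and *Vtn* had 9. *Rbp4* has 2 annotated starts, and its windows held 5 and 28 CG, the second above the upper quartile of 16. TATAAA, searched on both strands and not overlapping any CG, had 1 match in *Afp*, 2 in *Vtn* that overlap, 1 on each strand, and 1 in the second *Rbp4* window, and was found in 12.4% of all windows. A link between CG counts and the 2 patterns was not tested, and no window was taken for *Trf* or *Ttr*. No methylation was measured on these arrays. On chromosome 5 the protein-coding order is *Alb*, *Afp*, *Afm*, the last being afamin, a vitamin E binding protein of the same family.

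Values are log2 signals, on which a difference of 1 is a 2-fold change, and levels are compared only within a gene, since probe sets differ in brightness. Array medians were 5.771 to 5.904 and the highest signal in the table was 14.01. *Dnmt1* read 8.40 to 8.75 on the 6 TKO arrays and 8.45 to 8.86 on the 6 *Dnmt1-/-* arrays, against 9.16 to 9.77 on the 6 wt arrays, which goes with the labels. *Dnmt3a* was 6.45 to 7.65 on TKO arrays, against 7.96 to 9.45 on wt arrays. *Dnmt3b* was lower in TKO than in wt cells at day 0 (7.33 and 7.45 on TKO arrays, against 9.80 or more on wt arrays) and day 4 (8.88 and 8.58 on TKO arrays, against 9.04 and 9.70 on wt arrays), and higher at day 16 (7.52 and 7.71 on TKO arrays, against 7.16 and 7.41 on wt arrays). Where on these genes the probes lie against the mutations is not known here.

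From ESCs to day 16 EBs, 4 of the 7 genes rose in TKO cells, and all 7 rose in *Dnmt1-/-* and in wt cells. *Afp*, *Trf*, *Ttr* and *Rbp4* rose in every line, while *Alb*, *Ahsg* and *Vtn* rose in *Dnmt1-/-* and wt cells and stayed at ESC signals on both TKO arrays of day 16. A gene was called changed at a log2 difference of at least 1 and an adjusted p under 0.05 (limma, Benjamini-Hochberg adjustment over all 35512 probe sets). At this line 1.87% of all probe sets were called higher in TKO cells, 4.8% in *Dnmt1-/-* cells and 6.17% in wt cells. No gene of the 7 was called lower. The plot of signals on each array shows both patterns.

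**Figure D1:**
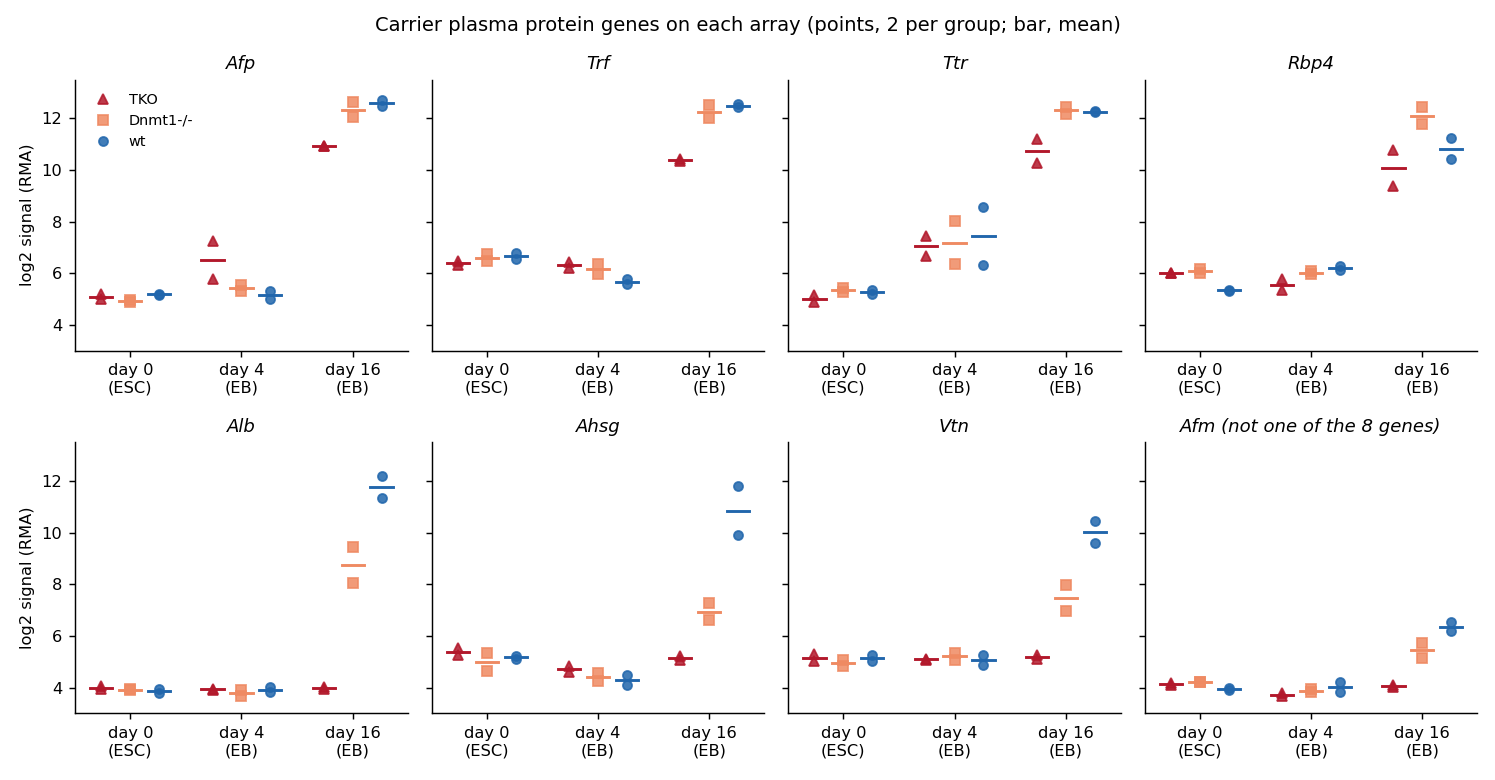
Log2 signal of the 7 measured genes and of *Afm* on each array (y axis) by day (x axis). Triangles are TKO, squares *Dnmt1-/-* and circles wt, 2 arrays per group, with a bar at the mean. The top row holds *Afp*, *Trf*, *Ttr* and *Rbp4*, which are at 9.40 or more on both TKO arrays of day 16. The bottom row holds *Alb*, *Ahsg* and *Vtn*, which are at 5.28 or less on the same arrays.

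*Afp*, the main serum carrier of the fetus, read 10.95 and 10.92 in TKO EBs of day 16, 12.63 and 12.06 in *Dnmt1-/-* EBs, and 12.72 and 12.48 in wt EBs. ESC arrays of all lines lay between 4.90 and 5.20. The day 16 arrays of the 3 lines were thus far above all ESC arrays, TKO was below both other lines, and *Dnmt1-/-* overlapped wt. The rise was 5.84 ± 0.35 in TKO cells (SE of the fit; adjusted p = 1.3e-05), 7.41 in *Dnmt1-/-* cells (adjusted p = 3.2e-07) and 7.42 in wt cells (adjusted p = 1.1e-07).

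*Alb*, the most abundant plasma protein of the adult and a carrier of fatty acids, read 3.96 and 4.01 in TKO EBs of day 16, 8.05 and 9.44 in *Dnmt1-/-* EBs, and 11.33 and 12.19 in wt EBs. The 12 arrays of day 0 and day 4, over all lines, lay between 3.67 and 4.05. Both TKO arrays of day 16 were therefore inside the range of ESCs and early EBs, and the 3 lines did not overlap at day 16. The change from day 0 was -0.01 in TKO cells (95% confidence interval -0.78 to 0.75, adjusted p = 1), 4.84 ± 0.35 in *Dnmt1-/-* cells (adjusted p = 5.6e-06) and 7.89 ± 0.35 in wt cells (adjusted p = 7.4e-08). The table holds no detection calls, so whether a signal near 4 is above background is not known here, and no fold is given where 1 side stayed at such signals.

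*Afm*, the neighbour of *Afp* on the other side, is not one of the 8 genes. It read 4.02 and 4.12 in TKO EBs of day 16, 5.72 and 5.16 in *Dnmt1-/-* EBs, and 6.53 and 6.20 in wt EBs, against 3.67 to 4.23 on the arrays of day 0 and day 4. Of the 3 neighbours, *Afp* alone was above its ESC range on the TKO arrays of day 16. *Afm* changed by -0.07 in TKO cells (adjusted p = 0.95), rose by 1.22 in *Dnmt1-/-* cells (adjusted p = 0.00079) and rose by 2.42 in wt cells (adjusted p = 2.8e-06). Without *Dnmt1-/-* replicate 1 of day 16 the *Dnmt1-/-* rise was 0.94 and no longer called.

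*Trf*, the iron carrier, read 10.44 and 10.34 in TKO EBs of day 16, 12.51 and 12.00 in *Dnmt1-/-* EBs, and 12.43 and 12.55 in wt EBs, against 6.31 to 6.79 in ESCs. The TKO arrays lay between the ESC arrays and the other day 16 arrays. Its rise was 4.01 ± 0.19 in TKO cells (16.1-fold, adjusted p = 2.2e-06), 5.65 in *Dnmt1-/-* cells (adjusted p = 1.7e-08) and 5.81 in wt cells (adjusted p = 8.1e-09).

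*Ttr* carries thyroxine and holds the retinol carrier *Rbp4* in a complex. *Ttr* read 11.20 and 10.28 in TKO EBs of day 16, 12.46 and 12.18 in *Dnmt1-/-* EBs, and 12.27 and 12.26 in wt EBs, against 4.89 to 5.43 in ESCs. *Rbp4* read 10.76 and 9.40 in TKO EBs, 12.43 and 11.78 in *Dnmt1-/-* EBs, and 11.23 and 10.42 in wt EBs, against 5.32 to 6.16 in ESCs. Both partners rose in all lines, and *Rbp4* was the one gene of the 7 whose TKO arrays overlapped the wt arrays at day 16 and whose highest arrays were *Dnmt1-/-*, without overlap with wt. *Ttr* rose by 5.72 ± 0.62 in TKO cells (adjusted p = 0.00023), 6.96 in *Dnmt1-/-* cells (adjusted p = 2.1e-05) and 6.98 in wt cells (adjusted p = 7.2e-06). *Rbp4* rose by 4.06 ± 0.37 in TKO cells (adjusted p = 5.5e-05), 6.01 in *Dnmt1-/-* cells (adjusted p = 2.8e-06) and 5.48 in wt cells (adjusted p = 1.2e-06).

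*Ahsg*, or fetuin-A, binds calcium phosphate and keeps it soluble. It read 5.06 and 5.23 in TKO EBs of day 16, 6.63 and 7.26 in *Dnmt1-/-* EBs, and 9.90 and 11.81 in wt EBs, against 4.65 to 5.52 in ESCs. *Vtn*, or vitronectin, is an adhesion protein that binds integrins, and read 5.11 and 5.28 in TKO EBs, 7.98 and 6.97 in *Dnmt1-/-* EBs, and 9.61 and 10.47 in wt EBs, against 4.83 to 5.30 in ESCs. For both genes the TKO arrays of day 16 lay inside the ESC range and the *Dnmt1-/-* arrays lay between TKO and wt. *Ahsg* changed by -0.24 in TKO cells (95% confidence interval -1.24 to 0.75, adjusted p = 0.91), rose by 1.96 ± 0.46 in *Dnmt1-/-* cells (adjusted p = 0.011) and rose by 5.68 in wt cells (adjusted p = 3.5e-06). *Vtn* changed by 0.03 in TKO cells (95% confidence interval -0.65 to 0.72, adjusted p = 0.99), rose by 2.52 ± 0.31 in *Dnmt1-/-* cells (adjusted p = 0.00019) and rose by 4.89 in wt cells (adjusted p = 8.8e-07). The *Ahsg* rise in *Dnmt1-/-* cells was no longer called without *Dnmt1-/-* replicate 2 of day 0 (1.62) or replicate 2 of day 16 (1.65).

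Most of each rise fell between day 4 and day 16. From day 4 to day 16 the same 4 genes were called higher in TKO cells (0.794% of all probe sets; 3 genes without TKO replicate 1 of day 4 or TKO replicate 1 of day 16) and all 7 in *Dnmt1-/-* (2.39%) and wt cells (3.94%). From day 0 to day 4, 1 of the 7 was called higher in TKO cells (2.27% of all probe sets), 0 in *Dnmt1-/-* cells (2.56%, and 2 of 7 at an unadjusted p under 0.05 with limma) and 1 in wt cells (2.43%).

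The TKO gene of day 4 was *Afp*, with 5.79 and 7.25 in TKO EBs, against 5.0 and 5.20 in TKO ESCs. At day 4 it read 5.32 and 5.56 in *Dnmt1-/-* EBs and 4.99 and 5.31 in wt EBs. TKO EBs of day 4 thus stood above the other EBs on both arrays, by very different amounts. Its change from day 0 was 1.42 ± 0.35 in TKO cells (adjusted p = 0.03), 0.50 in *Dnmt1-/-* cells (adjusted p = 0.5) and -0.03 in wt cells (adjusted p = 0.98). The TKO call was lost without TKO replicate 2 of day 4 (0.69), without TKO replicate 1 of day 0 (1.32) and without TKO replicate 2 of day 0 (1.52).

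The wt gene of day 4 was *Ttr*. It read 6.67 and 7.44 in TKO EBs, 6.36 and 8.01 in *Dnmt1-/-* EBs, and 8.55 and 6.32 in wt EBs, so every EB array of day 4 lay above every ESC array and the lines overlapped. Its changes were 2.03 ± 0.62 in TKO cells (adjusted p = 0.081), 1.83 in *Dnmt1-/-* cells (adjusted p = 0.095, and called without *Dnmt1-/-* replicate 1 of day 4 at 2.65) and 2.15 in wt cells (adjusted p = 0.048). The wt call was lost without wt replicate 1 of day 4 (1.03), without wt replicate 1 of day 0 (2.06) and without wt replicate 2 of day 0 (2.23). *Trf* read 5.77 and 5.59 in wt EBs of day 4 and 6.57 and 6.79 in wt ESCs, a difference of -1.0 ± 0.19 (adjusted p = 0.0059) that lay just short of 2-fold. It passed without wt replicate 1 of day 0 (-1.11) or wt replicate 1 of day 4 (-1.09).

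Between the lines, no gene of the 7 was called in ESCs, in TKO against wt (0.304% of all probe sets called either way), in *Dnmt1-/-* against wt (0.355%) or in TKO against *Dnmt1-/-* (0.00563%). The limma count at an unadjusted p under 0.05 was 0 of 7 in each. The widest gap in ESCs was that of *Rbp4*, with 6.0 and 6.03 in TKO ESCs, 6.16 and 6.02 in *Dnmt1-/-* ESCs, and 5.36 and 5.32 in wt ESCs. The difference was 0.68 in TKO against wt (95% confidence interval -0.13 to 1.48, adjusted p = 0.7) and 0.75 in *Dnmt1-/-* against wt (-0.06 to 1.56, adjusted p = 0.93).

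At day 4, *Afp* alone was called higher in TKO than in wt EBs (1.37 ± 0.35, adjusted p = 0.039; 2.11% of all probe sets called higher). That call was lost without TKO replicate 2 (0.64), without wt replicate 1 (1.21) and without wt replicate 2 (1.53). None of the 7 was called at day 4 in *Dnmt1-/-* against wt (0.738% of all probe sets called either way) or in TKO against *Dnmt1-/-* (0.848%), with 1 of 7 at an unadjusted p under 0.05 (limma) in each.

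At day 16, 5 of the 7 genes were called lower in TKO than in wt EBs, *Afp*, *Alb*, *Ahsg*, *Trf* and *Vtn* (3.43% of all probe sets called lower). *Alb* differed by -7.77 ± 0.35 (adjusted p = 1e-07), *Ahsg* by -5.71 ± 0.46 (adjusted p = 4.3e-06) and *Vtn* by -4.85 ± 0.31 (adjusted p = 1.1e-06). Those of *Trf* and *Afp* were smaller, with -2.10 ± 0.19 for *Trf* (4.28-fold lower, adjusted p = 1.5e-05) and -1.66 ± 0.35 for *Afp* (3.17-fold lower, adjusted p = 0.0066). The thyroxine and retinol carriers did not pass. *Ttr* differed by -1.52 (95% confidence interval -2.88 to -0.17, adjusted p = 0.15) and *Rbp4* by -0.74 (-1.55 to 0.06, adjusted p = 0.25). Without TKO replicate 1, *Rbp4* differed by -1.42 and was called. The median of the 7 was -2.10, against 0.05 over all probe sets.

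In *Dnmt1-/-* against wt EBs of day 16, *Alb*, *Ahsg* and *Vtn* were called lower (1.36% of all probe sets called lower), and none of the 7 higher. *Alb* differed by -3.02 ± 0.35 (8.09-fold lower, adjusted p = 0.00023), *Ahsg* by -3.91 ± 0.46 (adjusted p = 0.00023) and *Vtn* by -2.57 ± 0.31 (5.95-fold lower, adjusted p = 0.00033). For the others the differences were -0.25 for *Afp* (95% confidence interval -1.01 to 0.51), -0.24 for *Trf* (-0.66 to 0.18), 0.06 for *Ttr* (-1.29 to 1.41) and 1.28 for *Rbp4* (0.47 to 2.09, adjusted p = 0.071). *Rbp4* was called higher without wt replicate 1 (1.69), and with 1 probe set per gene (1.28). The 3 calls rested on the spread shared by all 18 arrays, and none passed in a fit of the 4 arrays compared alone.

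In TKO against *Dnmt1-/-* EBs of day 16, *Alb*, *Trf*, *Rbp4* and *Vtn* were called lower (0.941% of all probe sets called lower). The differences were -4.76 ± 0.35 for *Alb* (adjusted p = 6.6e-05), -2.28 ± 0.31 for *Vtn* (adjusted p = 0.0038), -2.03 ± 0.37 for *Rbp4* (adjusted p = 0.018) and -1.86 ± 0.19 for *Trf* (adjusted p = 8e-04). *Ahsg* (-1.80, adjusted p = 0.073), *Ttr* (-1.58, adjusted p = 0.27) and *Afp* (-1.41, adjusted p = 0.067) did not pass, although *Afp* and *Ahsg* did with p-values adjusted over all comparisons together or with 1 probe set per gene, and *Afp* also without the dimmest 30% of probe sets. The *Rbp4* call was lost without *Dnmt1-/-* replicate 1 (-1.70) or TKO replicate 2 (-1.35), and none of the 4 passed in a fit of the 4 arrays compared alone. All these comparisons share arrays, and the plot of day 16 differences sets them side by side.

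**Figure D2:**
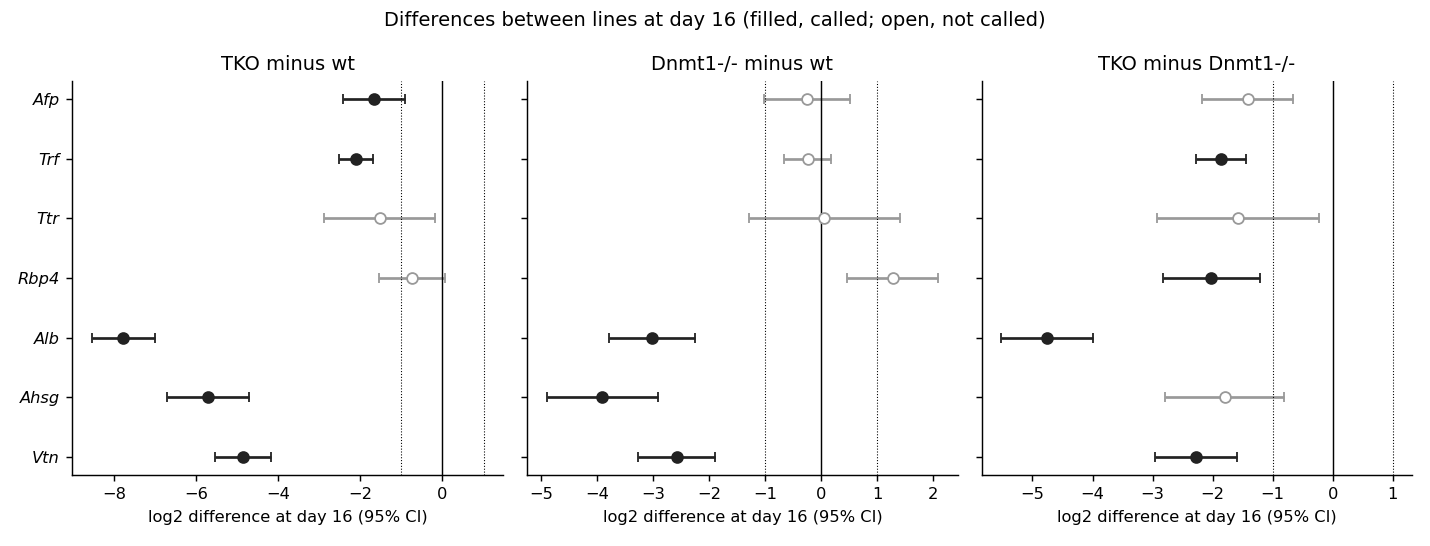
Log2 differences between lines at day 16 (x axis) for each gene (y axis), with 95% confidence intervals of the fit over all 18 arrays. The panels are TKO minus wt, *Dnmt1-/-* minus wt and TKO minus *Dnmt1-/-*, each on its own x scale, and filled points were called, while dotted lines mark 2-fold. *Alb*, *Ahsg* and *Vtn* are filled in both comparisons with wt, and *Afp* and *Trf* in TKO minus wt but not in *Dnmt1-/-* minus wt.

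The difference of the day 4 to day 16 change itself was tested, as a contrast of contrasts. The change was smaller in TKO than in wt cells for 5 of the 7 genes (*Afp*, *Alb*, *Ahsg*, *Trf* and *Vtn*; 2.24% of all probe sets called lower), and smaller in *Dnmt1-/-* than in wt cells for 3 (*Alb*, *Ahsg* and *Vtn*; 0.634%). It was smaller in TKO than in *Dnmt1-/-* cells for 2 (*Alb* and *Trf*; 0.158%). In a fit of only the arrays compared the counts for *Dnmt1-/-* against wt and TKO against *Dnmt1-/-* cells were 0. The *Dnmt1-/-* against wt count was also 0 without wt replicate 1 of day 4 and 1 without *Dnmt1-/-* replicate 2 of day 4, and the TKO against *Dnmt1-/-* count was 1 without *Dnmt1-/-* replicate 1 of day 16, TKO replicate 2 of day 16 or TKO replicate 2 of day 4. For *Alb* the change was 7.78 ± 0.50 smaller in TKO than in wt cells on the log2 scale (a difference of -7.78, adjusted p = 9.4e-06). From day 0 to day 16, 4 genes had a smaller change in TKO than in wt cells (*Alb*, *Ahsg*, *Trf* and *Vtn*; 2.22% of all probe sets called lower), with 3 for *Dnmt1-/-* against wt cells (*Alb*, *Ahsg* and *Vtn*; 0.749%) and 2 for TKO against *Dnmt1-/-* cells (*Alb* and *Trf*; 0.144%). Here too the counts of these last comparisons were 0 in a fit of only the arrays compared. The first was also 0 without wt replicate 1 of day 0 and 1 without wt replicate 2 or *Dnmt1-/-* replicate 1 of day 0, and the second was 1 without any 1 of the 4 arrays of day 0, *Dnmt1-/-* replicate 1 of day 16 or TKO replicate 2 of day 16. None was called for the change from day 0 to day 4, with 3 of 7 at an unadjusted p under 0.05 (limma) in TKO against wt, 0 in *Dnmt1-/-* against wt and 0 in TKO against *Dnmt1-/-*. For that period 1.38%, 0% and 0.031% of all probe sets were called either way in these 3 comparisons.

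Over the 9 group means, levels ordered in 2 main ways, with *Rbp4* apart from both. For *Afp* and *Trf* the order at the top was wt and *Dnmt1-/-* EBs of day 16, which overlapped, then TKO EBs of day 16, then all groups of day 0 and day 4. For *Alb*, *Ahsg* and *Vtn* it was wt, then *Dnmt1-/-* EBs of day 16 without overlap, and then TKO EBs of day 16 among the groups of day 0 and day 4. *Ttr* was as *Afp* with *Dnmt1-/-* and wt EBs overlapping at the top, and *Rbp4* had *Dnmt1-/-* EBs first and then wt and TKO EBs, which overlapped. Across the 9 groups, which share lines and days and are not independent, Pearson's r was 0.924 to 0.982 among *Afp*, *Trf*, *Ttr* and *Rbp4* (6 pairs), 0.959 to 0.992 among *Alb*, *Ahsg* and *Vtn* (3 pairs) and 0.677 to 0.85 for the 12 pairs between these sets. The sets were formed after the values were seen.

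The mean profile of the 7 genes was set against the other genes among the 19938 symbols, with 1 probe set each. Those whose group means followed it most closely were *Prl8a9* (r = 0.998 over 9 groups), *Fgg* (0.995), *Tpbpa* (0.993), *Ankrd1* (0.993), *Actc1* (0.993) and *Vstm4* (0.992). *Fgg* encodes a fibrinogen chain made in liver, *Tpbpa* and *Prl8a9* are genes of trophoblast and its prolactin family, and *Ankrd1* and *Actc1* are genes of heart muscle. At day 16 each averaged highest in wt EBs of the 3 lines, an order that the choice by likeness favoured. *Fgg* averaged 5.25 in TKO EBs, 7.25 in *Dnmt1-/-* EBs and 8.54 in wt EBs. Against the profiles of *Alb* and *Afp* apart, which was added after the values were seen, *Dcn* was nearest to *Alb* (0.997) and *Myo5b* to *Afp* (0.997). *Dcn*, a collagen-binding proteoglycan of connective tissue, was likewise picked for its likeness to *Alb*. It averaged 5.08 in TKO EBs of day 16, 9.51 in *Dnmt1-/-* EBs and 11.68 in wt EBs.

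Other carrier and plasma protein genes were counted in the same way, as were the lists after them. Counts of genes higher at day 16 than in ESCs stand beside 1.87% of all probe sets in TKO cells. The shares were 4.8% in *Dnmt1-/-* cells and 6.17% in wt cells. Of 39 measured genes on a list of 40, 9 were called higher at day 16 than in ESCs in TKO cells, 21 in *Dnmt1-/-* cells and 29 in wt cells, and 1 lower in *Dnmt1-/-* cells (*Fetub*, a relative of *Ahsg*, -1.37 ± 0.41, adjusted p = 0.037, lost without any 1 of the 4 *Dnmt1-/-* arrays compared). The medians were 0.39, 1.22 and 2.14, against -0.01, -0.09 and -0.07 over all probe sets. *Apob* (4.61 ± 0.40, adjusted p = 5.5e-05) and *Apoa1* (4.30 ± 0.31, adjusted p = 3.3e-05), the main proteins of lipoproteins, rose in TKO cells, as did the fibrinogen chain *Fgb* (2.85 ± 0.18, adjusted p = 1.5e-05) and *Apom* (2.76 ± 0.55, adjusted p = 0.013). The count in TKO cells was 5 without TKO replicate 1 of day 16, and the *Apom* call was lost without that array (2.16), without TKO replicate 1 of day 0 (3.07) and without TKO replicate 2 of day 0 (2.45).

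At day 16, 22 of the 39 were lower and none higher in TKO than in wt EBs, with a median of -1.37. The largest were *Serpina6*, the corticosteroid carrier (-4.99 ± 0.29, adjusted p = 5.1e-07), kininogen *Kng1* (-4.54 ± 0.33, adjusted p = 2.5e-06), *Ambp* (-4.50 ± 0.22, adjusted p = 1.4e-07) and the IGF carrier *Igfbp1* (-3.92 ± 0.26, adjusted p = 1.5e-06). In *Dnmt1-/-* against wt EBs 8 were lower, led by *Serpina6* (-3.59), *Itih2* (-2.34), *Kng1* (-1.93) and *Cp* (-1.77), the copper carrier. This count was 3 in a fit of the arrays compared alone. Higher there were *Apom* (3.22 ± 0.55, adjusted p = 0.004) and *Apob* (1.66 ± 0.40, adjusted p = 0.031). The *Apom* call was lost without *Dnmt1-/-* replicate 1 (2.90), and the *Apob* call without *Dnmt1-/-* replicate 1 (1.49), *Dnmt1-/-* replicate 2 (1.82) or wt replicate 2 (1.13). The plot of changes in TKO and wt cells shows these genes with the 7.

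**Figure D3:**
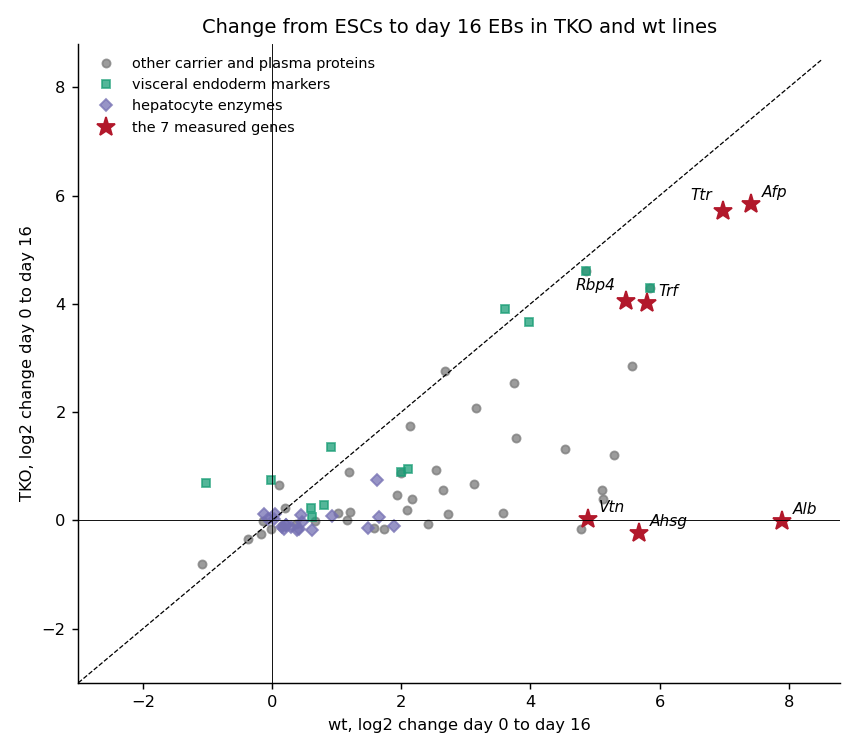
Log2 change from ESCs to day 16 EBs in TKO cells (y axis) against that in wt cells (x axis). Stars are the 7 measured genes, circles the other carrier and plasma protein genes, squares visceral endoderm markers and diamonds hepatocyte enzymes, with equal changes on the dashed line. All 7 stars lie below the line, *Afp* at 5.84 in TKO cells and 7.42 in wt cells, and *Alb* at -0.01 in TKO cells and 7.89 in wt cells.

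Genes for receptors, uptake and handling of the carried ligands were next. Of 24 measured on a list of 27, 5 were called higher at day 16 than in ESCs in TKO cells, 8 in *Dnmt1-/-* cells and 8 in wt cells, and 1 lower in wt cells (*Lrp2*). In TKO cells these were led by the iron exporter *Slc40a1* (4.28 ± 0.31, adjusted p = 3.3e-05), the endocytic adaptor *Dab2* (3.90 ± 0.37, adjusted p = 7.2e-05), *Cubn*, a receptor that takes up albumin and transferrin (3.67 ± 0.58, adjusted p = 0.0034), and the integrin subunit *Itgb3*, part of a vitronectin receptor (1.77 ± 0.22, adjusted p = 0.00064). In wt cells *Slc40a1* rose by 3.72, *Dab2* by 3.61 and *Cubn* by 3.97. Against wt EBs of day 16, TKO EBs had *Lrp2*, the partner of *Cubn*, higher (1.57 ± 0.32, adjusted p = 0.0058; 2.4% of all probe sets called higher). The cellular retinol carrier *Rbp2* alone was lower there (-1.38 ± 0.24, adjusted p = 0.0022; 3.43% of all probe sets called lower). The *Lrp2* call was lost without TKO replicate 1 (1.24) or wt replicate 2 (1.03). The count of lower genes was 2 without TKO replicate 1 and 3 without wt replicate 1. The transferrin receptor *Tfrc* and the Rbp4 receptor *Stra6*, chosen here because of their ligands, were not called from day 0 to day 16 in any line. *Tfrc* changed by 0.14 in TKO cells, -0.14 in *Dnmt1-/-* cells and 0.46 in wt cells, and *Stra6* by 0.36 in TKO cells, 0.75 in *Dnmt1-/-* cells and 0.89 in wt cells. Without wt replicate 1 of day 16 *Stra6* was called in wt cells (1.69).

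Of 19 measured regulators of liver and endoderm genes on a list of 21, 2 were called higher at day 16 than in ESCs in TKO cells, 6 in *Dnmt1-/-* cells and 9 in wt cells. The orphan nuclear receptor *Nr5a2* fell in *Dnmt1-/-* cells (-1.90 ± 0.27, adjusted p = 0.00046) and wt cells (-1.89 ± 0.27, adjusted p = 0.00024), with -0.79 in TKO cells (adjusted p = 0.13). The TKO genes were *Gata4* (1.32 ± 0.26, adjusted p = 0.011) and *Gata6* (1.17 ± 0.24, adjusted p = 0.013), factors of primitive endoderm. Both calls were lost without TKO replicate 1 of day 0 (1.22 for *Gata4*, 1.00 for *Gata6*) or TKO replicate 1 of day 16 (1.21 and 0.94), and in a fit of the arrays compared alone, while without TKO replicate 2 of day 16 the list had 4 called genes. Against wt EBs of day 16, 1 was higher in TKO EBs, *Nr5a2* (1.10 ± 0.27, adjusted p = 0.015), a call lost without TKO replicate 1 (1.03), TKO replicate 2 (1.18) or wt replicate 2 (0.97), and 6 were lower, led by *Gata6* (-2.19 ± 0.24, adjusted p = 5.8e-05), the hepatoblast factor *Onecut1* (-2.04 ± 0.18, adjusted p = 1.1e-05), *Foxa1* (-1.66 ± 0.22, adjusted p = 0.00026) and *Zbtb20* (-1.40 ± 0.29, adjusted p = 0.0058), known in mice as a repressor of *Afp*. The *Zbtb20* call was lost without TKO replicate 2 (-1.29) or wt replicate 2 (-1.20). *Foxa1* (-1.89 ± 0.22, adjusted p = 0.00021) and *Onecut1* (-1.85 ± 0.18, adjusted p = 5.4e-05) were lower in *Dnmt1-/-* EBs too. *Hnf4a*, a factor of visceral endoderm and liver, differed by -0.70 ± 0.26 in TKO against wt EBs (adjusted p = 0.11) and was called without TKO replicate 1 (-1.03).

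Markers of cell types that could make these proteins were counted beside them. Of 12 measured visceral endoderm markers, 8 of which are also on a list above, 5 were called higher at day 16 than in ESCs in TKO cells, 10 in *Dnmt1-/-* cells and 6 in wt cells. *Lrp2* was called lower in wt cells (-1.02 ± 0.32, adjusted p = 0.037, lost without wt replicate 1 of day 0 at -0.70 or wt replicate 2 of day 16 at -0.48), against a rise of 1.29 in *Dnmt1-/-* cells (adjusted p = 0.016, lost without *Dnmt1-/-* replicate 2 of day 0 or either *Dnmt1-/-* array of day 16) and 0.69 in TKO cells (adjusted p = 0.3). The mean signal of the list was 7.68 and 8.30 on the TKO arrays of day 16, 8.98 and 9.34 on the *Dnmt1-/-* arrays, and 7.76 and 8.33 on the wt arrays, so TKO and wt overlapped on this list. In TKO against wt EBs 1 was higher (*Lrp2*) and 1 lower (*Apoa1*, -1.37 ± 0.31, adjusted p = 0.01). The *Apoa1* call was lost without TKO replicate 2 (-1.0), wt replicate 1 (-1.34) or wt replicate 2 (-1.39), and without TKO replicate 1 the list had 2 lower genes. In *Dnmt1-/-* against wt EBs 4 were higher, *Lrp2* (2.01), *Apob* (1.66), *Amn* (1.46) and *Dab2* (1.45), beside 1.53% of all probe sets. That count was 1 without *Dnmt1-/-* replicate 1 or wt replicate 2, and 1 in a fit of the arrays compared alone.

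Of 19 measured hepatocyte enzymes, none was called higher at day 16 than in ESCs in TKO cells, 1 in *Dnmt1-/-* cells and 3 in wt cells. The shares of all probe sets were 1.87%, 4.8% and 6.17%, so the TKO and *Dnmt1-/-* counts did not stand apart from them. In wt cells these were *Cps1* of the urea cycle (1.88 ± 0.23, adjusted p = 7.2e-05), *Arg1* (1.65 ± 0.23, adjusted p = 0.00024) and *Fbp1* (1.49 ± 0.33, adjusted p = 0.0046), and in *Dnmt1-/-* cells *Tdo2* (4.21 ± 0.81, adjusted p = 0.0034). *Cps1* (-1.67), *Fbp1* (-1.54) and *Arg1* (-1.48) were lower in TKO than in wt EBs. The *Fbp1* calls were lost without wt replicate 2 of day 16, with 0.74 for the wt change and -0.80 for TKO against wt. Without wt replicate 1 of day 16 the wt count was 5. The mean signal of this list was 4.34 and 4.55 on TKO arrays of day 16, 4.55 and 4.68 on *Dnmt1-/-* arrays, and 4.73 and 5.18 on wt arrays, without overlap between TKO and wt. Of 10 parietal endoderm markers, 3 rose in TKO cells, 9 in *Dnmt1-/-* cells and 6 in wt cells, and the TKO count was 0 or 1 without any 1 of the 4 TKO arrays of day 0 and day 16. Their mean signal was 7.64 and 7.72 on TKO arrays, 9.22 and 9.24 on *Dnmt1-/-* arrays, and 8.16 and 9.02 on wt arrays.

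Some of these proteins have other known sources. *Ttr* is also made by choroid plexus, *Trf* by oligodendrocytes and *Rbp4* by adipocytes. Of 8 choroid plexus markers, *Clic6* alone rose by day 16, by 3.29 in TKO cells, 4.90 in *Dnmt1-/-* cells and 2.76 in wt cells, and the *Dnmt1-/-* count was 2 without *Dnmt1-/-* replicate 2 of day 16. *Slc4a5* fell in *Dnmt1-/-* cells (-1.02 ± 0.24, adjusted p = 0.012, lost without any 1 of the 4 arrays compared) and wt cells (-1.51 ± 0.24, adjusted p = 0.00059), and *Otx2* in wt cells (-1.86 ± 0.38, adjusted p = 0.0033). Against wt EBs of day 16 both were higher in TKO EBs, *Otx2* by 2.49 ± 0.38 (adjusted p = 0.00088) and *Slc4a5* by 1.46 ± 0.24 (adjusted p = 0.0015). Of 7 oligodendrocyte markers none rose in any line, and of 6 adipocyte markers only *Fabp4* rose, in wt cells (1.64 ± 0.25, adjusted p = 0.00046). The *Fabp4* call was lost when the dimmest 30% of probe sets were left out. Mean signals at day 16 were 6.50 and 6.61 on TKO arrays, 6.74 and 6.77 on *Dnmt1-/-* arrays and 6.11 and 6.27 on wt arrays for choroid plexus markers. For oligodendrocyte markers they were 5.50 and 5.77 on TKO arrays, 5.62 and 5.63 on *Dnmt1-/-* arrays and 5.63 and 5.74 on wt arrays.

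Pluripotency markers fell by day 4, before most of the rise of the 7 genes. The median change of the markers to day 4 was -0.66 in TKO cells, -2.19 in *Dnmt1-/-* cells and -3.11 in wt cells. Over all probe sets that median was -0.03, -0.02 and -0.00. From day 4 to day 16 the median change of the markers was 0.57 in TKO cells, 1.03 in *Dnmt1-/-* cells and 0.07 in wt cells. Of 10, none was called lower at day 16 than in ESCs in TKO cells (0.631% of all probe sets), 6 in *Dnmt1-/-* cells (2.1%) and 9 in wt cells (4.62%), and 9 were higher in TKO than in wt EBs. Their mean signal was 10.10 and 10.13 on the TKO arrays of day 16, 8.93 and 9.15 on the *Dnmt1-/-* arrays, and 7.27 and 7.67 on the wt arrays, without overlap. In *Dnmt1-/-* against wt EBs 5 were higher, and between 1 and 3 without any 1 of the 4 arrays. The part of this shift, or of the endoderm and hepatocyte markers, in the levels of the 7 genes was not tested. The plot of list means shows these levels on each array.

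**Figure D4:**
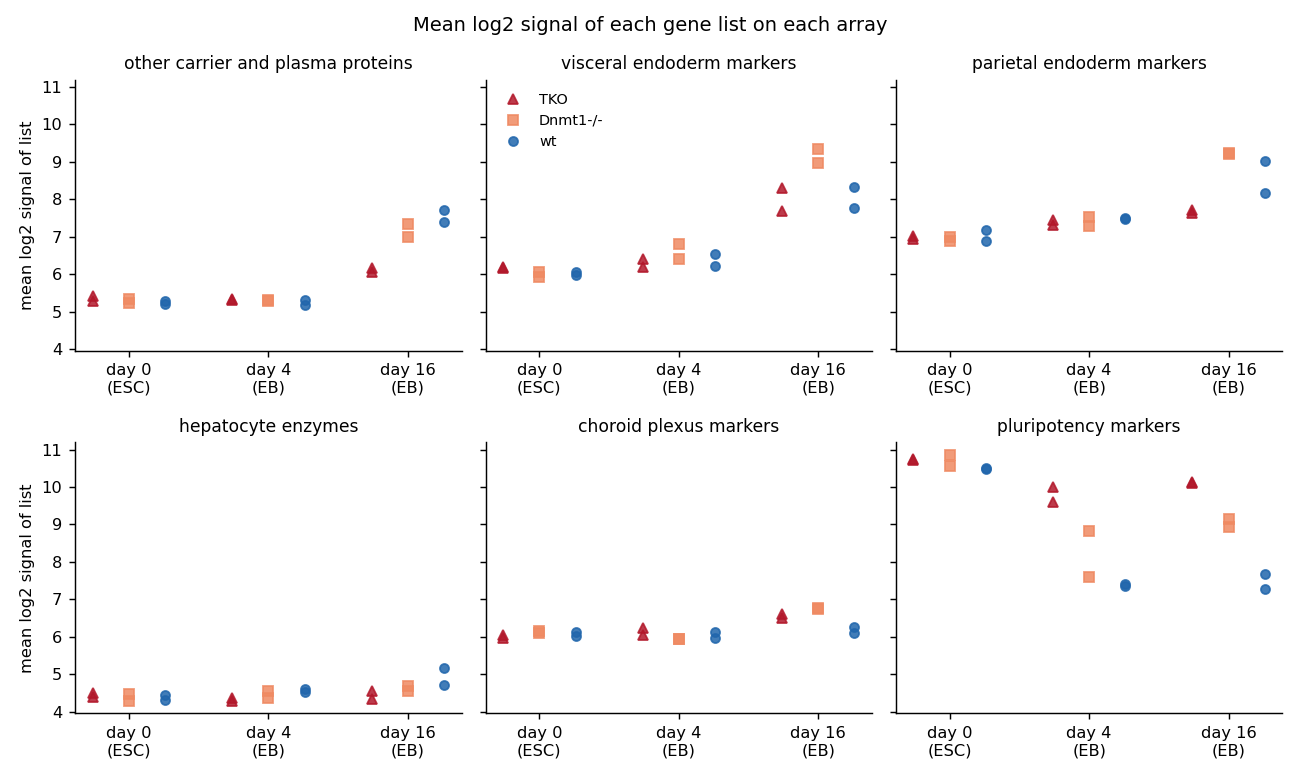
Mean log2 signal over each gene list (y axis) on each array, by day (x axis). Triangles are TKO, squares *Dnmt1-/-* and circles wt, 2 arrays per group. At day 16 visceral endoderm markers overlap between TKO (7.68 and 8.30) and wt (7.76 and 8.33), while pluripotency markers are highest in TKO (10.10 and 10.13).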

How the data were processed

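The authors hybridised 300 ng of RNA per sample to Affymetrix Mouse Gene 1.0 ST arrays and deposited RMA values, log2 signals that are background-corrected, quantile-normalised and summarised over the probes of a probe set. No detection calls, raw intensities or comparisons of the authors were used. RMA draws arrays to a common distribution, so a change shared by most genes would not be seen. Genes were named through the platform annotation. Of 35512 probe sets, 21789 had 1 symbol, 1621 had several and 12102 had none. Group means of all 18 arrays were fitted with limma 3.58.1 in R 4.3.3 (empirical Bayes), with all contrasts from 1 fit and Benjamini-Hochberg adjustment per comparison over all probe sets. A call needed a 2-fold change and an adjusted p under 0.05. Each list named up to 4 called genes with the largest change, beside *Tfrc*, *Stra6*, *Hnf4a* and *Afm*, chosen for their role or position with values known. The members and lists were chosen with earlier results of these data known. The labels call replicates biological, and p-values of the main fit rest on the spread between the 2 samples of a group, pooled over the 9 groups. Scripts were tested on simulated data. Alternatives covered normalisation, a low-signal filter, the arrays fitted, a replicate block, moderation, adjustment, probe sets per gene and single arrays left out. Promoters came from RefSeq in GRCm38.p6, and windows were taken for 6 of the 8 genes. Entries of chromosome 18, which holds *Ttr*, were not used, and the window of *Gc* is not shown. Python 3.11.15 and matplotlib 3.10.9 drew the figures. Some list genes are not reported here.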

Additional observations from a re-analysis of the deposited data

Results flagged for a closer look

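The change of 5 genes from day 4 to day 16, and of 4 from day 0 to day 16, differed between the lines by a test of the difference itself (limma, interaction contrast). The comparisons share arrays. From day 4 to day 16 the change in TKO minus that in wt cells was -7.78 for *Alb* (SE 0.50, adjusted p = 9.4e-06), -6.13 for *Ahsg* (adjusted p = 0.00021), -4.87 for *Vtn* (adjusted p = 8e-05), -3.04 for *Afp* (adjusted p = 0.0046) and -2.74 for *Trf* (adjusted p = 0.00015). From day 0 to day 16 it was -7.91 for *Alb* (adjusted p = 8.3e-06), -5.93 for *Ahsg* (adjusted p = 0.00029), -4.86 for *Vtn* (adjusted p = 7.9e-05) and -1.81 for *Trf* (adjusted p = 0.0026). None of these 9 calls was lost when any single array of the groups compared was left out, and that of *Afp* was lost in a fit of only the arrays compared.

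For *Dnmt1-/-* minus wt cells the day 4 to day 16 values were -2.87 for *Alb* (adjusted p = 0.017), -4.02 for *Ahsg* (adjusted p = 0.011) and -2.71 for *Vtn* (adjusted p = 0.012), and the day 0 to day 16 values were -3.06 for *Alb* (adjusted p = 0.012), -3.72 for *Ahsg* (adjusted p = 0.016) and -2.37 for *Vtn* (adjusted p = 0.024). Without wt replicate 1 of day 4 none of the 3 passed over day 4 to day 16 (-2.77 for *Alb*, -3.82 for *Ahsg*, -2.52 for *Vtn*), and without wt replicate 1 of day 0 none passed over day 0 to day 16 (-2.99 for *Alb*, -3.67 for *Ahsg*, -2.47 for *Vtn*). Over day 4 to day 16, *Alb* was also lost without wt replicate 2 of day 4 (-2.98), wt replicate 2 of day 16 (-2.44) or *Dnmt1-/-* replicate 2 of day 4 (-2.76), *Vtn* without *Dnmt1-/-* replicate 2 of day 4 (-2.57), and *Ahsg* without *Dnmt1-/-* replicate 1 of day 16 (-3.71). Over day 0 to day 16, *Ahsg* was lost without *Dnmt1-/-* replicate 1 of day 0 (-3.38), *Dnmt1-/-* replicate 1 of day 16 (-3.41) or wt replicate 2 of day 0 (-3.78). *Vtn* was lost without *Dnmt1-/-* replicate 1 (-2.48) or 2 (-2.25) of day 0, *Dnmt1-/-* replicate 2 of day 16 (-1.86), wt replicate 2 of day 0 (-2.27) or wt replicate 2 of day 16 (-1.94).

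For TKO minus *Dnmt1-/-* cells the values from day 4 to day 16 were -4.90 for *Alb* (adjusted p = 0.0024) and -2.02 for *Trf* (adjusted p = 0.014), and from day 0 to day 16 they were -4.85 for *Alb* (adjusted p = 0.002) and -1.64 for *Trf* (adjusted p = 0.043). *Trf* from day 4 to day 16 was lost without *Dnmt1-/-* replicate 1 of day 16 (-1.76), TKO replicate 2 of day 16 (-1.96) or TKO replicate 2 of day 4 (-1.88). From day 0 to day 16 *Trf* passed without *Dnmt1-/-* replicate 2 of day 16 and was lost without any other of the 8 arrays, at values from -1.77 to -1.39.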

How the results depend on the processing

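Under the alternatives, 1696 values of single genes kept their direction and side of the threshold, 140 lost and 25 gained a call, and 14 changed sign. For the 7 genes, a fit of only the arrays compared called 0 for the change from day 0 to day 16 in *Dnmt1-/-* minus wt (3 in the fit of all arrays) and TKO minus *Dnmt1-/-* cells (2), for the change from day 4 to day 16 in both (3 and 2), from day 0 to day 4 in wt cells (1), in *Dnmt1-/-* against wt EBs (3) and TKO against *Dnmt1-/-* EBs (4) of day 16, and in TKO against wt EBs of day 4 (1). It has fewer residual degrees of freedom. Further quantile normalization called 1 for TKO minus *Dnmt1-/-* from day 0 to day 16 and 2 in wt cells by day 4. With 1 probe set per gene, TKO minus *Dnmt1-/-* from day 4 to day 16 had 4, and the change to day 4 had 2 in TKO and 1 in *Dnmt1-/-* cells. Adjustment over all comparisons together gave 4 for TKO minus *Dnmt1-/-* from day 4 to day 16 and 0 in wt cells by day 4.

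With single arrays left out, counts were 0 to 3 for *Dnmt1-/-* minus wt in both periods to day 16, 1 to 3 for TKO minus *Dnmt1-/-* in both, and 0 to 1 for TKO minus wt to day 4, for each line from day 0 to day 4, and for TKO against *Dnmt1-/-* and against wt EBs of day 4. *Vtn* from day 0 to day 16 in TKO cells was -0.03 with array medians subtracted, -0.01 with quantile normalization and -0.11 to 0.18 with single arrays left out. In the same way *Alb* in TKO cells was -0.06 to 0.04, *Afp* in wt cells at day 4 -0.19 to 0.13, and in *Dnmt1-/-* against wt EBs of day 16 *Afp* was -0.54 to 0.03, *Trf* -0.49 to 0.02 and *Ttr* -0.08 to 0.20. *Tfrc* by day 16 was -0.12 to 0.40 in TKO cells, -0.34 to 0.06 in *Dnmt1-/-* cells and -0.03 to 0.95 in wt cells. The causes were not tested.

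List counts, put through the same alternatives after values were seen, moved by over 1.5 times in 35 cases and stayed within that in 481. Without the 30% of probe sets of lowest signal all 7 genes were kept. Same-numbered samples tended to deviate together (r from 0.0409 to 0.501 over 36 pairs of groups, median 0.273, above 0.1 in 32). The paper reports independent experiments, so a replicate number may mark the experiment, but neither the labels nor the methods say so. The main fit did not take the numbers as a pairing, and a fit with a replicate block was run beside it. With the replicate block *Afp* in TKO against *Dnmt1-/-* EBs of day 16 (-1.41) and *Rbp4* in *Dnmt1-/-* against wt EBs (1.28) became called, and no count of the 7 moved by over 1.5 times. With 2 arrays a group, single arrays set many of the smaller calls, and signals near 4 cannot be placed against background.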
